A study of Mus musculus with 4 samples.

Results

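The input array of a CLIP-chip experiment was examined here as a profile of the RNA of the mouse gut epithelium. CLIP-chip crosslinks RNA to protein with ultraviolet light, precipitates the protein and reads the RNA on a microarray. The input is the RNA before any precipitation, taken from intestinal epithelium of adult C57BL/6 mice, with no antibody used. It was 1 of 4 arrays. The other 3 carried RNA precipitated with nonspecific IgG, with an antibody to the RNA-binding protein Msi1 or with an antibody to an hnRNP, a class of nuclear RNA-binding proteins, from the same strain, stage and tissue. Each array held RNA pooled from 2 experiments, and each group had 1 array, so there are no replicates, no spread between samples and no test. Precision is limited by that number of arrays. Neither the animals' sex nor the stretch of intestine is given in the sources used here.

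Genes were chosen by the input column alone. Of 34760 probe sets, 21640 carried 1 gene symbol, and they gave 19937 genes, each taken at its brightest probe set on input and ranked by its log2 signal. A detection floor was set from 1196 genes of olfactory and vomeronasal receptors, which gut epithelium should not express, at their 95th percentile, and it stood at 4.09 on input. Of the 19937 genes, 11789 exceeded it (59.1%). The top 10% held 1993 genes (10% of all, by construction), and the top 1% held 199 (0.998%). A probe set's signal also depends on how well its probes bind, so the order of genes is an order of signal and not of molecules. Gene groups are therefore described by counts and by the median rank percentile, where 100 is the brightest gene.

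The lining of the intestine is a single sheet of cells that is renewed from stem cells at the base of the crypts. Most of its cells are absorptive enterocytes, which carry digestive enzymes and transporters on a brush border of microvilli. Goblet cells secrete mucus, Paneth cells at the crypt base secrete antimicrobial proteins, enteroendocrine cells release hormones, and tuft cells sense the lumen. In a bulk sample such as this, fewer cells of a type and less RNA per cell cannot be told apart.

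The brightest single-symbol genes were a mixture of noncoding RNAs, Paneth and enterocyte products and genes that every cell uses. Rn7sk, a small nuclear RNA that restrains transcription elongation, ranked 1 at 13.92. Lyz1, the lysozyme of Paneth cells, ranked 2 at 13.89. Lypd8, an enterocyte surface protein that keeps flagellated bacteria away, ranked 3 at 13.35, and Rpph1, the RNA of ribonuclease P, read 13.34. The ribosomal protein gene Rps6 (12.90), the keratin gene Krt8 (12.79), the mitochondrial nucleotide carrier gene Slc25a5 (12.71) and Actb, which encodes actin (12.64), followed. The translation genes Eef1a1 (12.29) and Eif4a1 (12.10) and the chaperone gene Hspa8 (12.27) were also among the first 13. The mitochondrially encoded genes ND3 and COX2, a subunit each of respiratory complexes, read 12.13 and 12.04; they were on no list and were named after their values were seen.

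Msi1, the gene whose protein was precipitated on another array, ranked 11 on input. It read 12.16 on input, 8.14 on IgG, 8.09 on the Msi1 array and 6.07 on hnRNP. All 4 values lay above their arrays' floors. This gene had 1 probe set, and whether that probe set reads other RNA was not tested. Its relative Msi2 ranked 5267 at 6.17.

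Further down the first 50 stood several products of differentiated epithelium. Zg16, a goblet cell mucus protein, read 12.08, and the Paneth cell defensin gene Defa24 read 12.06. Anpep, the brush border aminopeptidase N, read 11.95 and ranked 19. Lgals4, a galectin of the brush border, read 11.87. The metallothionein gene Mt2 read 11.65, the apolipoprotein genes Apoa4 and Apoa1 read 11.59 and 11.58, and the gel-forming mucin gene Muc2 read 11.57. Alpi, intestinal alkaline phosphatase, read 11.52, and Rbp2, which binds retinol in enterocytes, read 11.28. The sugar-splitting enzymes Sis and Mgam read 11.25 and 11.23. Apart from Mt2, these products are assigned by textbooks to enterocytes, goblet cells or Paneth cells.

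**Figure D1:**
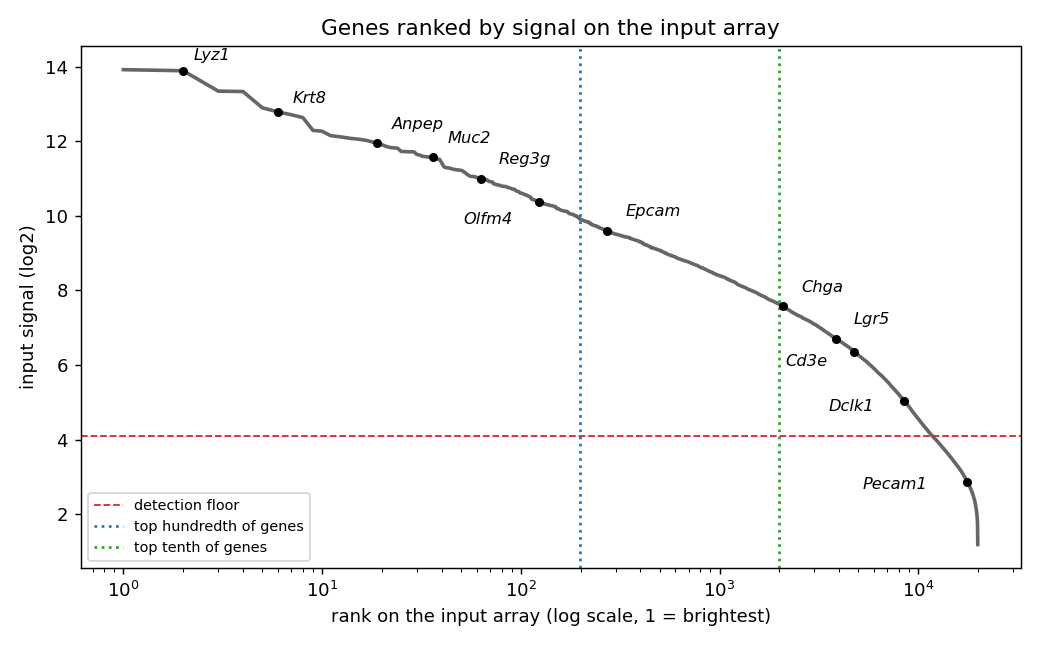
Input signal (log2, vertical) against rank (log scale, horizontal) for 19937 genes, with 12 genes marked; the dashed line is the detection floor and the dotted lines mark the top 1% and the top 10%. Lyz1 at 13.89 lies at the top of the curve, Chga at 7.57 just below the limit of the top 10%, and Pecam1 at 2.87 below the floor.

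The limits of the ranking fell in dense stretches of values. Srrm2 (9.91) was the last gene inside the top 1% and Npc1l1 (9.90) the first outside. Esyt2 and E2f4 both read 7.63 on either side of the top 10% limit, and Baiap2 and Gdpd3 both read 4.09 on either side of the floor.

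Of the 199 genes of the top 1%, 44 belonged to lists of epithelial cell types and functions and 49 to lists of general functions. The epithelial lists also hold genes not particular to epithelium, such as Actb on the microvillus list and Fth1 and Mt2 on the mineral list. The remaining 106 were on neither, and 0 were on lists of other cell types or other organs. By RefSeq biotype, 192 of the 199 were protein-coding and 3 were small nucleolar RNAs. Over all genes on the epithelial lists, 143 of 274 lay in the top 10% (52.2%), and over the general function lists 216 of 420 (51.4%). For lists of other cell types it was 2 of 105 (1.90%), and for other organs 0 of 57. The lists were chosen with earlier results of these data known, and the classes after values were seen. These shares are therefore in part set by that choice.

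The promoters of 5 bright genes are shown because they carry different core sequences. The entries are from RefSeq on GRCm38.p6, 250 bases before to 50 after each start, with capitals marking matches to the motifs searched. Those motifs were the TATA box TATAAA, the GATA motif AGATAA, the caudal motif TTTATG, the nuclear receptor motif CAAAGTCCA, the HNF1 consensus palindrome and the GC box GGGCGG. Each was searched on both strands, and matches could overlap. Krt20 lies on chromosome 11 from 99438104 to 99438403, minus strand. Reg3g lies on chromosome 6 from 78468825 to 78469124, minus strand. Alpi lies on chromosome 1 from 87101557 to 87101856, minus strand. Anpep lies on chromosome 7 from 79848161 to 79848460, minus strand, and Rps6 on chromosome 4 from 86857318 to 86857617, minus strand.
Krt20: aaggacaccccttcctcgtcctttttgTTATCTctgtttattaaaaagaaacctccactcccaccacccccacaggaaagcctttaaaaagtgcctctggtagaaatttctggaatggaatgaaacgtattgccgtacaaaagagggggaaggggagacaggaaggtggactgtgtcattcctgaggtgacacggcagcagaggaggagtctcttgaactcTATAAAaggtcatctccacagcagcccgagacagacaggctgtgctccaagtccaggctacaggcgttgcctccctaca
Reg3g: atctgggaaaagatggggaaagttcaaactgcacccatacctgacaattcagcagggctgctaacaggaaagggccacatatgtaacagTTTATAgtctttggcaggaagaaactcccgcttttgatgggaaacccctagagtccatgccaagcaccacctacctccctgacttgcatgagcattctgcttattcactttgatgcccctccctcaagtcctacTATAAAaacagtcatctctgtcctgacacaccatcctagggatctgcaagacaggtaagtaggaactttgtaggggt
Alpi: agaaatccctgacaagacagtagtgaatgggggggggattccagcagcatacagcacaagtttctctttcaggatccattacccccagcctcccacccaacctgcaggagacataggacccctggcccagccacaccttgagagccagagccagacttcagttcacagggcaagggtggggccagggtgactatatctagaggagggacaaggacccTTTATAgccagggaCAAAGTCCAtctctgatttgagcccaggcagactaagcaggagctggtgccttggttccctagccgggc
Anpep: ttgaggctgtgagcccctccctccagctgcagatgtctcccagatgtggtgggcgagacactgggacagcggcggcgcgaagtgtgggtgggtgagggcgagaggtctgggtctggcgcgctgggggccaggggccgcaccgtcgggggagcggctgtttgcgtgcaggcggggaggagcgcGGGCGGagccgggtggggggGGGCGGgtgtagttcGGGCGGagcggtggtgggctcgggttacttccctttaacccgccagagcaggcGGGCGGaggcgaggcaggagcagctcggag
Rps6: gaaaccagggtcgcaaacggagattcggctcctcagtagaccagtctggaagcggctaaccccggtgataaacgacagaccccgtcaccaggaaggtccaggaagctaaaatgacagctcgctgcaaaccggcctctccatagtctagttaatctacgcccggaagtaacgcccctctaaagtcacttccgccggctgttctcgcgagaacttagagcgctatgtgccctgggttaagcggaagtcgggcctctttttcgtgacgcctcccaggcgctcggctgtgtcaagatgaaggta

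Krt20, a keratin of mature enterocytes, has TATAAA beginning at -29 from the start and the reverse complement of AGATAA at -223. Reg3g, an antimicrobial lectin, has TATAAA at -27 and its reverse complement at -161. Alpi has the reverse complement of TATAAA at -33 and CAAAGTCCA at -19. Anpep has GGGCGG at -68, -48, -33 and 20 and none of the other motifs searched. The Rps6 window holds none of these letters, which says nothing about the factors that act there. A match is a description and not a site of binding.

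Promoter entries were found for 149 of the 199 genes of the top 1% (74.9%), under the 80% set as a minimum, so that check is void. They were found for 1621 of the 1993 genes of the top 10% (81.3%). TATAAA began 40 to 20 bases before the start, on the sense strand, in 32 of these 1621 (1.97%) and in 404 of 15562 promoters of all ranked genes (2.60%). Among 7797 promoters of genes above the floor but outside the top 10% it was 129 (1.65%), so the direction depends on the set compared. Among the 118 promoters of epithelial list genes in the top 10% it was 10 (8.47%), and among 77 of cytosolic ribosomal protein and oxidative phosphorylation genes it was 0. GGGCGG was present in 66.6% of the top 10%, 62.6% of the other genes above the floor, 49.9% of all ranked genes, and 35.6% of the epithelial list genes in the top 10%. The median number of CpG pairs in a window was 23 in the top 10%, 20 in the other genes above the floor, 15 in all ranked genes and 6 in the epithelial list genes. CAAAGTCCA was present in 0.679%, 0.450% and 2.54% of the top 10%, all ranked genes and the epithelial list genes, the last being 3 promoters. TATAAA anywhere in the window was present in 14.2% of all 27025 genes in the promoter table, AGATAA in 11.4%, TTTATG in 12.1%, the HNF1 palindrome in 0.0629%, CAAAGTCCA in 0.477% and GGGCGG in 35.9%.

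The labelled tissue carried its defining markers. All 15 genes of epithelial junctions and keratins exceeded the floor, 14 were in the top 10% and 6 in the top 1%, with a median percentile of 98.4. After Krt8, the keratin genes Krt19 and Krt20 read 11.03 and 10.79, and the cadherin genes Cdh17 and Cdh1 read 10.41 and 10.40. Epcam, a surface marker of epithelia, read 9.60, and Cldn2, a pore-forming claudin, was the lowest at 6.83.

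Genes of absorptive enterocytes lay near the top as a group. All 18 brush border enzyme genes exceeded the floor, and 15 were in the top 10%, with a median percentile of 97.7. Lct, the lactase gene, read 9.78 and the dipeptidyl peptidase gene Dpp4 8.75, while Tmprss15, which encodes enteropeptidase, was lowest at 4.87. Of 20 genes of lipid uptake and lipoprotein assembly, all exceeded the floor and 18 were in the top 10% (median percentile 98.3). Fabp2, a fatty acid-binding protein, read 11.07, Mttp, which loads lipid onto apolipoprotein B, 10.73, and Apob itself 10.25. The fatty acid and lipoprotein receptors Cd36 and Scarb1 were the lowest at 5.54 and 4.92.

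Transporters for sugars, peptides and amino acids followed, with 15 of 15 above the floor and 10 in the top 10%. Slc3a2, a subunit of amino acid exchangers, read 10.26, the glucose cotransporter Slc5a1 9.76 and the peptide transporter Slc15a1 8.83. The fructose transporter Slc2a5 was lowest at 5.93. Of 16 mineral and vitamin genes, 15 exceeded the floor and 6 were in the top 10%. The ferritin heavy chain gene Fth1 read 11.21 and the phosphate transporter Slc34a2 9.84, while the iron reductase gene Cybrd1 read 4.12 and the calcium channel gene Trpv6 3.69, below the floor. Among actin and microvillus genes, 17 of 17 exceeded the floor and 14 were in the top 10%, including villin (Vil1, 9.53) and ezrin (Ezr, 9.44).

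Of 6 villus tip genes, all exceeded the floor and 2 were in the top 10%, the adenosine deaminase gene Ada at 8.26 and the transcription factor gene Klf4 at 7.70.

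Genes known from one stretch of the gut differed in signal. Of 7 genes of ileal bile acid handling, 6 exceeded the floor and 3 were in the top 10%, with the bile acid-binding protein gene Fabp6 at 7.98 and the uptake transporter Slc10a2 at 6.19. Gata4, a transcription factor of the upper small intestine, read 8.21. Of 8 colon genes, 3 exceeded the floor. Slc26a3, a chloride exchanger also found in small intestine, read 8.95, while the carbonic anhydrase gene Car1 read 3.57 and Hoxb13 3.67. Of 13 stomach genes 2 exceeded the floor, of 11 liver genes 2, and of 12 pancreas genes 8 (66.7%), against 59.1% of all genes. The pancreas genes, with a median of 4.36, were led by Ctrb1 (6.53) and Ctrl (6.19), which encode chymotrypsin-like proteases. Skeletal muscle had 3 of 8 above the floor, lung and kidney 2 of 7, and testis 2 of 6, with none in the top 10%.

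Secretory cells were represented by a few very bright products. Of 14 goblet cell genes, 13 exceeded the floor, 6 were in the top 10% and 5 in the top 1%. Beside Zg16 and Muc2, Agr2, which folds mucins, read 11.01, the trefoil factor gene Tff3 10.62 and Clca1 10.61. The transcription factors Atoh1 and Spdef read 7.11 and 6.03. Of 7 Paneth cell genes with a symbol of their own, 6 exceeded the floor and 5 were in the top 10%. The lectin gene Itln1 read 8.65, the ribonuclease gene Ang4 7.90, and the protease gene Mmp7, which processes defensins, 7.70. Lyz1 is closely similar to Lyz2, the lysozyme of macrophages, which read 8.49, and probes for these paralogs may share RNA.

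Antimicrobial genes of the epithelium spanned the whole range of signal. Of 15, 12 exceeded the floor and 9 were in the top 10%. Pigr, which carries IgA into the lumen, and Reg3g both read 11.00, Reg3b 10.82 and Reg1 10.78. Reg3a read 8.37 and Reg3d 3.48, so members of the Reg family lay on both sides of the floor. The acute phase genes Saa1 and Saa2 read 1.85 and 2.33.

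Stem cell genes were detected at lower signal. Of 22, 21 exceeded the floor (95.5%, against 59.1% of all genes), but 4 were in the top 10%, and the median percentile was 76.8. The highest of the 4 was Msi1, whose single probe set is described above. Olfm4, a secreted protein of crypt base cells, read 10.37, the ion cotransporter gene Slc12a2 8.70 and Myb 7.95. Lgr5, the R-spondin receptor that marks cycling stem cells, read 6.71, Smoc2 6.11 and the transcription factor gene Ascl2 4.59. Of 25 genes of dividing cells, all exceeded the floor, against 59.1% of all genes, and 12 were in the top 10%. The replication clamp gene Pcna read 10.61, the cyclin gene Ccnb2 9.68 and Mki67 8.27, and Hells was lowest at 5.38.

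Rare cell types differed in signal. Of 10 hormone genes, all exceeded the floor, with a median of 6.09, and Sst (8.08) and Gip (7.85), which encode somatostatin and the incretin GIP, were in the top 10%. Cck read 6.87, Gcg 6.46 and Nts 4.42. Of 17 other enteroendocrine genes, 15 exceeded the floor (88.2%, against 59.1% of all genes) and 0 were in the top 10%. Their median was 4.41, below the 4.57 of all genes, with the granule protein gene Chga highest at 7.57. Of 16 tuft cell genes, 9 exceeded the floor (56.25%) and 0 were in the top 10%, with a median of 4.32. That share lay near the 59.1% of all genes. The kinase gene Dclk1 read 5.04, the channel gene Trpm5 5.02, Pou2f3 4.61 and the cytokine gene Il25 2.96. Of 7 M cell genes, 5 exceeded the floor, and the defining marker Gp2 read 2.59.

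**Figure D2:**
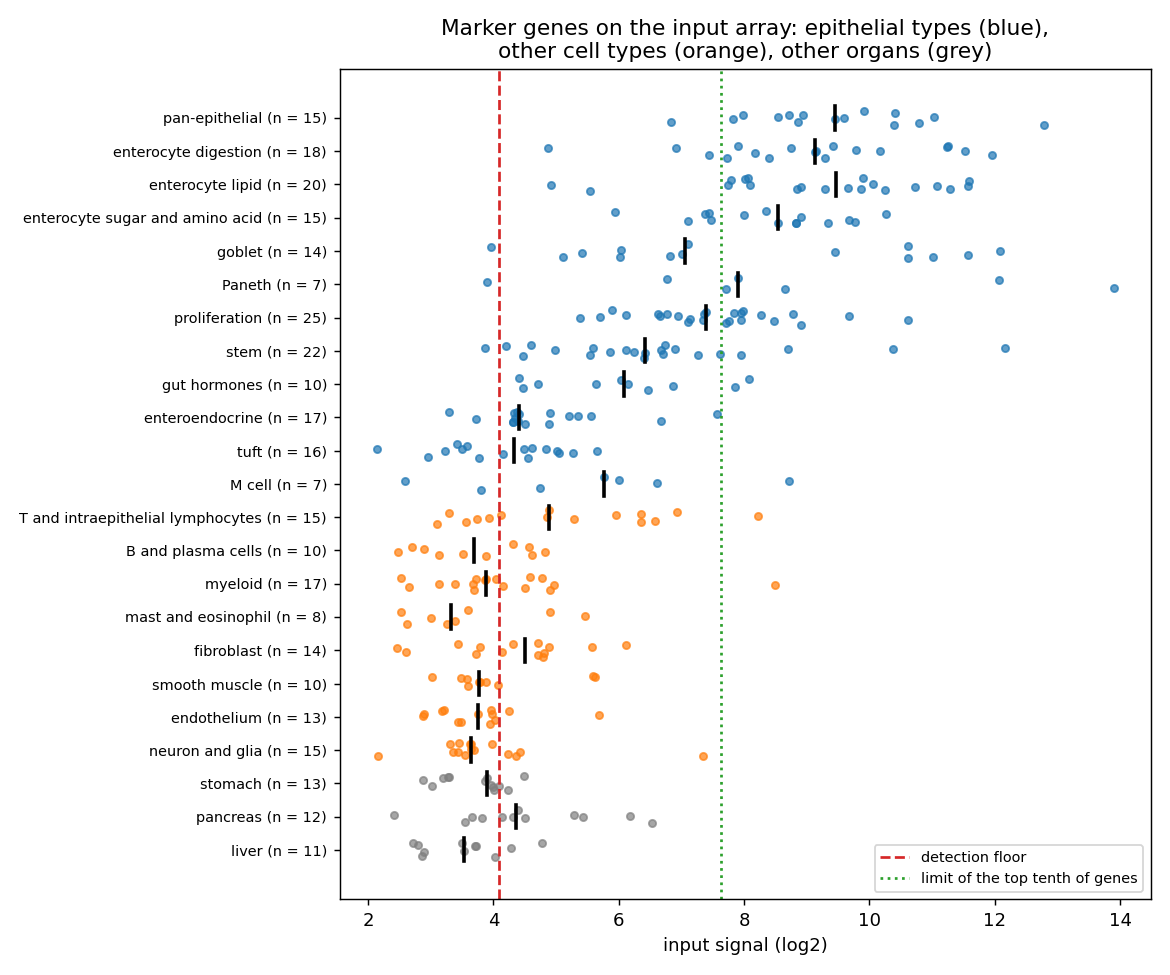
Input signal (log2) of the members of 23 marker lists, 1 point per gene, with a black bar at each list's median; the dashed line is the detection floor and the dotted line the limit of the top 10%. Among the lists plotted, medians run from 9.47 for enterocyte lipid genes to 3.32 for mast cells and eosinophils.

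Transcription factors of the intestinal epithelium were all detected, 21 of 21, against 59.1% of all genes, with 11 in the top 10%. Hnf4a (10.30), Klf5 (10.17) and Hnf4g (10.02) were in the top 1%, and the vitamin D receptor gene Vdr read 9.86. Cdx2 and Cdx1, which set intestinal identity, read 7.61 and 6.69, and Foxa2 was lowest.

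Detection of markers of cells other than epithelium differed by cell type. Of 105 such genes, 40 exceeded the floor (38.1%), against 59.1% of all genes. The share was above that of all genes for T and intraepithelial lymphocytes (66.7%) and fibroblasts (64.3%). It was below that of all genes for the other lists of such cells. T and intraepithelial lymphocytes had 10 of 15 above the floor, with the chemokine gene Ccl5 at 8.22, Gzmb at 6.58 and Cd3e at 6.36, while Cd3d read 3.10. B and plasma cells had 4 of 10 and ran from 2.48 to 4.83, with Cd79a at 2.90 and Ms4a1 at 2.48, both below the floor. Macrophages and other myeloid cells had 7 of 17, with Lyz2 the only member in the top 10% and Csf1r and Adgre1 below the floor at 3.38 and 3.13. Fibroblasts had 9 of 14, led by the proteoglycan gene Dcn at 6.12, and Col1a1 read 4.80. Smooth muscle had 2 of 10 and ran from 3.02 to 5.63, with Myh11 at 3.78 and Actg2 at 3.02. Blood and lymph vessels had 2 of 13 and ran from 2.87 to 5.68, with Pecam1 at 2.87. Enteric neurons and glia had 4 of 15, led by L1cam at 7.34. Mast cells and eosinophils had 2 of 8, and red blood cell genes 0 of 3. The alpha globin genes, read by 2 probe sets they share, were at 5.90 and 5.60. The 2 shared probe sets of beta globin genes read 3.94 and 2.44, below the floor.

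Genes of antigen presentation were detected. Of 7 class II genes, 7 exceeded the floor and 4 were in the top 10%, with the invariant chain gene Cd74 at 9.74 and H2-Ab1 at 8.82. The B and plasma cell list, with 4 of 10 above the floor, ran from 2.48 to 4.83, and the myeloid list, with 7 of 17, from 2.53 to 8.49. The part of these cells in the class II signal was not tested. Of 9 class I genes, all exceeded the floor, and B2m read 11.72. Of the sex-linked genes, Eif2s3y, Uty and Kdm5d, on the Y chromosome, read 6.79, 6.37 and 5.56, and Xist, which silences an X chromosome in females, read 2.87, below the floor.

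Several metabolic groups had many members in the top 10%. All 8 genes measured for citrulline, glutamine and proline metabolism were in the top 10%, with Oat, ornithine aminotransferase, at 11.06, Arg2 at 10.51 and Cps1, the first enzyme of the urea cycle, at 10.31. Of 14 redox genes, 11 were in the top 10%, led by Txn1 (11.72), with the intestinal glutathione peroxidase gene Gpx2 at 10.12 and Gpx3 below the floor at 3.96. Of 32 genes of xenobiotic metabolism, 31 exceeded the floor and 23 were in the top 10%, with the alcohol dehydrogenase gene Adh1 at 11.06, Gstm3 at 10.51 and Ugt2b34 at 10.26. Cyp1a1, which is induced by aromatic compounds, was below the floor at 3.56. Fatty acid oxidation had 9 of 13 in the top 10%, led by Hadh (10.71), glycolysis and gluconeogenesis 7 of 13, led by Ldha (11.72), and cholesterol synthesis 5 of 10, led by Insig1 (8.61). Glycolysis and cholesterol synthesis lay near the 51.4% of all general function lists, and cholesterol synthesis had 1 member in the top 10% when only genes above the floor were ranked.

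Genes of protein synthesis and energy supply were also bright. Of 60 cytosolic ribosomal protein genes, 46 were in the top 10% and 16 in the top 1%. Of 79 nuclear genes of oxidative phosphorylation, 48 were in the top 10%, led by Atp5d (12.02) and Ndufs7 (11.63). Mitochondrial ribosomal proteins were all detected, 77 of 77, but 7 were in the top 10%, with Mrpl34 highest at 8.85. Of 36 translation factors 18 and of 43 proteasome subunits 18 were in the top 10%. Endoplasmic reticulum folding genes had 10 of 13, with calnexin (Canx) at 11.32 and Hspa5 at 10.57. Immediate early and stress genes had 11 of 16, with Jun at 9.14, Egr1 at 8.76 and Fos at 7.76. Solute carriers as a family had 61 of 371, zinc finger proteins 3 of 341 and collagens 0 of 44. Above the floor were 16 of 52 keratin genes (30.8%) and 8 of 42 defensin genes (19.0%). So were 36 of 44 collagen genes (81.8%) and 240 of 371 solute carriers (64.7%), against 59.1% of all genes. The collagen median was 4.48, below the 4.57 of all genes. Defensins and ribosomal proteins have near-identical copies, so the signal of a single member is uncertain.

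**Figure D3:**
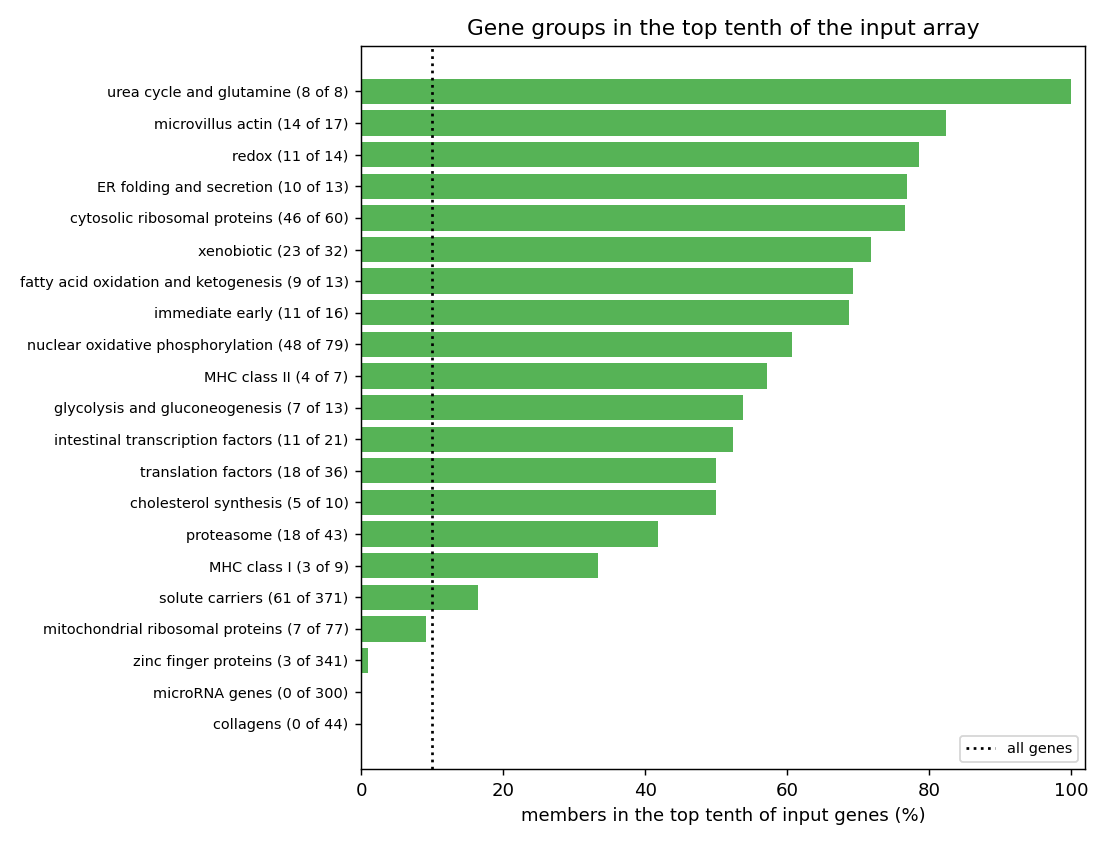
Share of each group's measured members (%) that lay in the top 10% of input genes, with the counts beside each name; the dotted line marks the 10% of all genes. Citrulline, glutamine and proline genes stand at 8 of 8 and collagens and microRNA genes at 0.

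Noncoding RNAs other than Rn7sk and Rpph1 were split by class. Of 54 small nucleolar and Cajal body RNA genes, 43 exceeded the floor (79.6%, against 59.1% of all genes) and 14 were in the top 10%. The highest were Snora3 (10.37) and Snord57 (10.32). The Y RNA gene Rny3 read 10.32 and Rmrp, the RNA of ribonuclease MRP, 10.15. Of 300 microRNA genes, 72 exceeded the floor (24.0%) and 0 were in the top 10%, with Mir692-1 highest at 7.36. Mir194-1 and Mir215, which are known from intestinal epithelium, read 6.07 and 5.99. These probe sets read RNA from the microRNA genes and not mature microRNAs as such.

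Probe sets of one gene often disagreed. Of 954 genes with more than 1 probe set, 535 (56.1%) had probe sets that differed by at least 1 log2 unit. In the top 1%, 47 genes had more than 1, and 37 of them differed by that much, with a median range of 2.80. Rps6 ranged from 4.24 to 12.90 over 7 probe sets, Rpl9 from 3.99 to 11.42 over 8, and Cycs from 4.22 to 11.00 over 3. With probe sets averaged by gene, 174 of the 199 genes stayed in the top 1%, and with the lowest probe set 162 did.

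The other 3 arrays give context through their own ranks, which do not depend on scaling between arrays. The genes above the floor numbered 5510 on IgG (27.6%), 9453 on Msi1 (47.4%) and 6454 on hnRNP (32.4%). Of the 199 genes of the input top 1%, 50 were also in the top 1% of the Msi1 array (25.1% of either list), 29 in that of IgG (14.6%) and 21 in that of hnRNP (10.6%). Above the floor were 192, 139 and 127 of them. Each of these genes was picked for its input signal, so lower ranks elsewhere are in part set by that choice.

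The leading epithelial genes kept different positions on the precipitated arrays. Lyz1 read 13.89 on input, 8.10 on IgG, 7.11 on Msi1 and 4.61 on hnRNP, the last below its floor of 5.17. Krt8 read 12.79, 8.80, 8.75 and 8.32 on the same arrays, above the floor on each. Anpep read 11.95, 6.74, 8.40 and 5.36, also above each floor. Fabp2 read 11.07, 5.22, 9.78 and 4.22, and was above the floor on input and Msi1 only. Zg16 read 12.08, 7.63, 9.86 and 6.36. These genes were named for their input signal, and the arrays differ in floor and spread, so no order between arrays is read from these values.

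Brush border enzyme genes had median percentiles of 97.7 on input, 65.1 on IgG, 92.7 on Msi1 and 54.5 on hnRNP. Xenobiotic genes had 93.9, 28.7, 80.8 and 33.9. Stem cell genes had 76.8, 74.8, 68.3 and 66.1, a narrower range. Collagen genes ran the other way, with 48.5 on input, 93.0 on IgG, 81.5 on Msi1 and 94.3 on hnRNP, although 36 of 44 exceeded the floor on input. With 1 array per group these differences were not tested.

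**Figure D4:**
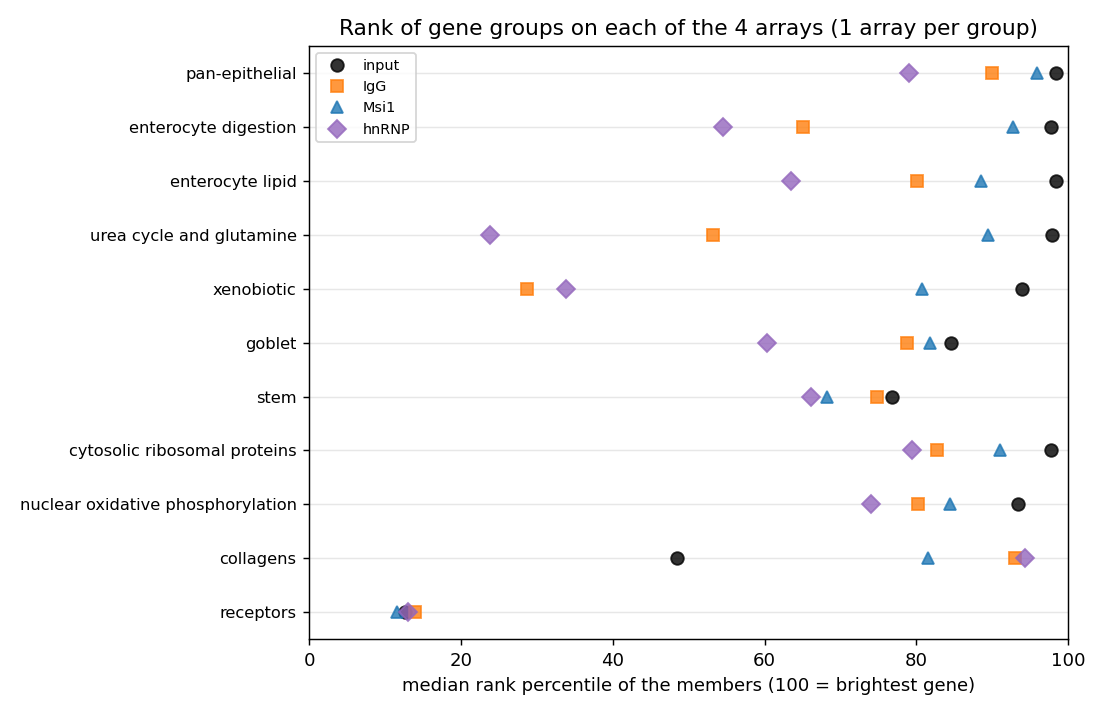
Median rank percentile of the members of 11 gene groups (100 is the brightest gene) on the input, IgG, Msi1 and hnRNP arrays, 1 point per array. The enterocyte digestion and lipid groups lie at 97.7 and 98.3 on input, and collagens lie at 48.5 on input and at 93.0 and 94.3 on IgG and hnRNP.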

How the data were processed

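Input RNA from mouse intestinal epithelium was read on 1 array, and 3 further arrays held precipitated RNA, each from 100 ng of labelled RNA per the labels. The authors deposited 1 log2 value per probe set, and it was not rescaled. The submitters' processing notes name affy; how background was corrected and arrays were normalized, and the log base, are not stated there, and base 2 was inferred from the range, 1.07 to 14.3. Symbols came from the platform annotation and were updated by Entrez identifier, which matched 21553 of 21640 single-symbol probe sets to RefSeq. A further 1321 probe sets carried several symbols and 11799 none.

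Genes, floor and ranks are as the report gives them. Of 646 members sought by symbol in 61 lists, 61 were not found. Members and lists were chosen with earlier results of these data known. The grouping of lists into 4 classes, the promoters printed, the probe sets looked up by name and the split of promoters by list were chosen after values were seen. Genes named are the 50 brightest on input, members of the lists (the brightest, the textbook markers and the lowest) and those next to the limits. Promoter checks were planned for the top 1%, with the top 10% as the alternative that is reported. No protein sequences were used. No p-values were computed. The ranking was also run on simulated data, in which all probe sets of a gene shared the same planted level. Real probe sets often differed, so that run checks only the computation. Computations used Python 3.11.15, pandas 2.3.3, numpy 2.4.6 and matplotlib 3.10.9.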

Additional observations from a re-analysis of the deposited data

Results flagged for a closer look

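The ranking left out signal in probe sets without a symbol of their own. Of 1321 probe sets with several symbols, 448 (33.9%) exceeded the input floor and were at least 2-fold above IgG, as did 2096 of the 11799 without a symbol (17.8%). Among the 21640 probe sets with 1 symbol it was 6246 (28.9%). The fold compares deposited values of arrays that differ in floor and spread. The IgG array was the control. The probe set shared by Malat1 and Ramp2 read 13.68 on input and 11.03 on IgG. The one shared by the Paneth cell genes Defa21, Defa22, Defa23 and Defa31 read 12.92 and 8.94. A probe set shared by Gapdh and 7 other symbols read 12.86, and Gapdh probe sets ranged down to 2.74. The probe set shared by Sprr2a1, Sprr2a2, Sprr2a3 and Sprr2b, genes of small proline-rich proteins, read 12.34 and 7.81. These 4 probe sets were picked after their values were seen.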

How the results depend on the processing

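No paired analysis was possible because each group had 1 array. Any monotone scaling of the input array leaves its ranks as they are. The count of genes above the floor stayed within 1.5 times under every floor and probe set choice tried. With probe sets of several symbols added, 100 of the 213 genes of the top 1% were shared with the ranking reported. In that setting every symbol of a shared probe set took its value, so a shared probe set could count as several genes. Counts for families with near-identical copies, such as histones and defensins, are therefore not counts of separately bright genes. Counts in the top 10% that moved by over 1.5 times were as follows. With several symbols added they were 10 for Paneth cells, 1 for villus tip, 2 for myeloid cells, 5 for class I presentation, 7 for zinc finger proteins, 48 for histones, 4 for microRNA genes and 17 for defensins. Ranked among genes above the floor they were 1 for ileal bile acid, 1 for villus tip, 3 for Paneth cells, 6 for dividing cells, 0 for gut hormones, 0 for T cells, 1 for cholesterol synthesis, 3 for mitochondrial ribosomal proteins, 11 for the proteasome and 9 for histones. Without predicted genes, receptors and small RNAs they were 1 for villus tip and 0 for small nucleolar RNAs, which that setting removes. With the mean or the lowest probe set, 1 enteroendocrine gene entered, and with the lowest 23 cytosolic ribosomal protein genes were counted. The other counts stayed within 1.5 times. With 1 array, signal near the floor limits what can be said of rare cell types.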
